A study of Bombyx mori with 3 samples.

Results

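Of 16880 genes counted in the silk gland of the silkworm Bombyx mori, 35 had their highest RNA level on day 1 of the first larval instar by the rule given here. Glands of the Nistari strain were taken at 3 stages, namely in the embryo 8 days after the eggs were laid (E8D), on the opening day of larval life (1L1D) and at the molt that ends the first instar (1LM). All stages had the same strain and standard rearing, and the labels name no treatment or mutation. Each stage had 1 droplet single-cell library made from about 2000 pooled glands, so there was no replicate, and stage and library cannot be told apart. The glands were dissociated before the cells were captured. A member was a gene with at least 50 UMIs (unique molecular identifiers, each a counted RNA molecule) per 1000000 UMIs of the library (CPM) at 1L1D and at least 4 times the CPM of both other stages, with UMIs summed over barcodes with at most 30% mitochondrial UMIs. Cuticle protein, Osiris, serpin, UGT and silk protein genes were left out by name, as was Btl. Of 42 genes that passed on level, 7 carried such a name, which left 35 members. The stage levels chose the members, so they are given below as a description and without a test.

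The silk gland is a paired tube with 3 regions. The posterior region makes fibroins, which form the silk fibre, the middle region makes sericins, which glue it, and the anterior region is a duct that passes liquid silk to the spinneret without making the main silk proteins. A larva at 1L1D has just hatched and feeds, while at 1LM it does not feed.

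The libraries kept 5073 barcodes with 12389165 UMIs at E8D, 4708 barcodes with 30837946 UMIs at 1L1D and 7506 barcodes with 16568963 UMIs at 1LM. The median depth was 754, 2029 and 1546 UMIs per barcode in the same order. The filter on mitochondrial UMIs removed 278, 1292 and 7 barcodes in that order. The 5% deepest barcodes held 53.2%, 31.0% and 21.6% of the kept UMIs. Between 10 and 12 barcode sequences were shared by any pair of libraries, and no doublet caller was run. Of the genes that define the tissue, fibroin heavy chain FIBH stood at 135, 65919 and 12750 CPM in the 3 stages and fibroin light chain Fib-l at 2591, 27363 and 10446 CPM. Of other tissues, the summed muscle list of 5 genes stood at 58.5, 113 and 120 CPM, the midgut list of 6 genes at 4.20, 53.1 and 61.1 CPM, the haemocyte list of 10 genes at 165, 394 and 562 CPM, the neuron list of 11 genes at 363, 291 and 709 CPM, and the fat body list of 4 genes at 591, 961 and 655 CPM. The part of other tissues in the results was not tested.

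In sum, 0.261% of the E8D library, 2.95% of the 1L1D library and 0.313% of the 1LM library were UMIs of members. The 5 most abundant members held 73.7% of the members' UMIs at 1L1D, so the sum was carried by few genes. The median member stood at 9.61, 161 and 15.3 CPM in the 3 stages. At 1L1D 7 members reached 1000 CPM, 13 lay between 100 and 1000 CPM and 15 between 50 and 100 CPM. The ratio of 1L1D over E8D had a median of 17.4 and a range of 4.09 to 782 over the members, and that of 1L1D over 1LM a median of 12.2 and a range of 4.09 to 101, where a count below 3 was taken as 3. Among all 1120 genes with at least 50 CPM at 1L1D, 11.1% were at least 4-fold over E8D, 6.61% were at least 4-fold over 1LM and 3.75% passed both, before names were left out. Over genes with more than 3 UMIs in either library, 6.35% were at least 4-fold over E8D and 2.53% over 1LM. All members passed both by the rule, so nothing is read from their count. The median log2 ratio over the members was 4.12 for 1L1D over E8D and 3.61 for 1L1D over 1LM, against -0.23 and -1.30 over all genes with over 3 UMIs. Scaling by edgeR's TMM factors added 0.29 and 1.14 to every log2 ratio over E8D and over 1LM. Both shifts raise every ratio, so the members passed by construction.

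**Figure D1:**
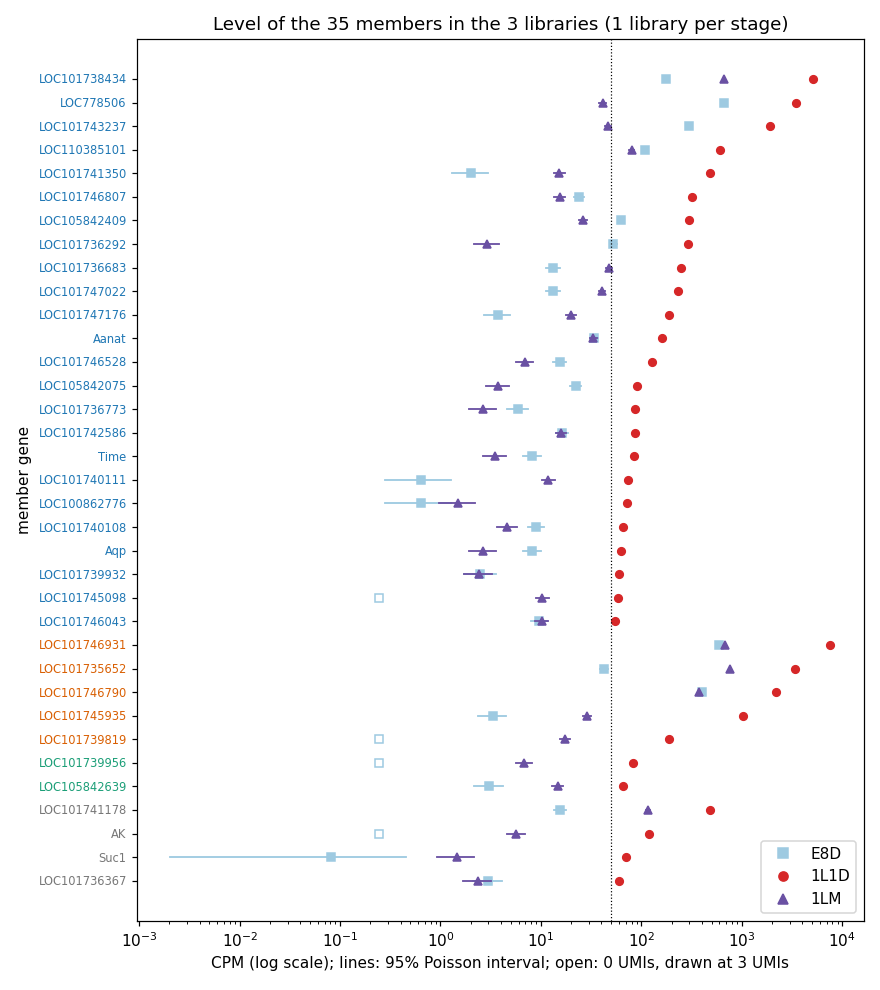
Level of each member in the 3 libraries, in CPM on a log axis, with 95% Poisson intervals as lines and genes with 0 UMIs drawn as open symbols at 3 UMIs. Gene names are coloured by the barcode class in which the member was at least 2-fold higher (blue Btl-positive, orange sericin-rich, green fibroin-rich, grey none), and every 1L1D point lies right of the dotted line at 50 CPM.

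The levels at the 2 outer stages had no common order. Of the 35, 17 members were lower at 1LM than at E8D and 18 were higher. Just inside the threshold lay the uncharacterized gene LOC101741178 with a smaller ratio of 4.09, the lncRNA gene LOC105842075 with 4.09 and LOC101735652 with 4.38. Just outside lay LOC101741176, an acyl-CoA Delta(11) desaturase-like gene, at 3.95, LOC101742706 at 3.60 and Idgf, an imaginal disk growth factor gene, at 3.53.

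To see which barcodes of the 1L1D library carried the members, 3 classes were set with genes that are not members. Btl and the fibroin genes were left out by name, though Btl and FIBH also stood highest at 1L1D. Btl had 3.79, 38.2 and 2.47 CPM at E8D, 1L1D and 1LM. The rule can thus favour genes of barcodes with Btl, so the class counts below are not independent of it. Btl-positive barcodes had at least 1 UMI of Btl, the gene of an FGF receptor that guides the branching of tracheal tubes in Drosophila. The study found Btl in the anterior gland and the adjoining part of the middle gland. Sericin-rich barcodes were the 5% with the highest share of sericin UMIs, and fibroin-rich barcodes the 5% with the highest share of fibroin UMIs. There were 426 Btl-positive, 229 sericin-rich and 235 fibroin-rich barcodes with median depths of 11204, 3770 and 11084 UMIs, and 3812 barcodes in no class with a median of 1750 UMIs, while 6 barcodes that fell in more than 1 class were left out. A member was called for a class when its CPM there was at least 2 times that in all other barcodes and the exact binomial interval of the ratio left out 1. These intervals cover counting error only, since barcodes of 1 library are not replicates.

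The members were set against these classes 1 by 1. Of the 35, 24 were called higher in Btl-positive barcodes, where 17.2% of 9721 genes tested were called (15.2% of genes with at least 50 CPM at 1L1D), and 9 were called lower, against 7.77% of genes. In sericin-rich barcodes 5 were called higher, a share near that of all genes (11.1% of genes, 10.8% of those with at least 50 CPM), and 26 lower (6.63% of genes). In fibroin-rich barcodes 2 were called higher (1.29% of genes, 1.79% of those with at least 50 CPM) and 32 lower (18.3% of genes). No member was called higher in both Btl-positive and sericin-rich barcodes, and 4 were called higher in none of the 3 classes. The shares of all genes called in both or in none were not taken, so neither count is read as a result. The median log2 ratio of class over other barcodes was 1.95 over the members for the Btl-positive class, against 0.29 over all genes. For the fibroin-rich class it was -5.77 over the members and -0.29 over all genes. Btl-positive barcodes held 18.2% of the library's UMIs and 26.4% of the members' UMIs, sericin-rich barcodes 9.62% and 25.8%, and fibroin-rich barcodes 10.5% and 0.489%. The barcodes in no class held 61.7% of the UMIs and 47.4% of the members' UMIs. Lists of other tissues differed between the classes too. The summed fat body and haemolymph list stood at 4983 CPM in sericin-rich barcodes and 532 CPM in others, and the muscle list at 254 and 97.7 CPM. The haemocyte list stood at 858 CPM in Btl-positive barcodes and 291 CPM in others, and the midgut list at 120 and 38.4 CPM. Their part in the class ratios was not tested. Depth differed between the classes, and within 3 bins of UMIs per barcode the Btl-positive count was also 24, the same 24 genes. The bins split the Btl-positive barcodes into 3 equal parts. The lowest bin had no lower limit, so depth was not fully matched within it.

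**Figure D2:**
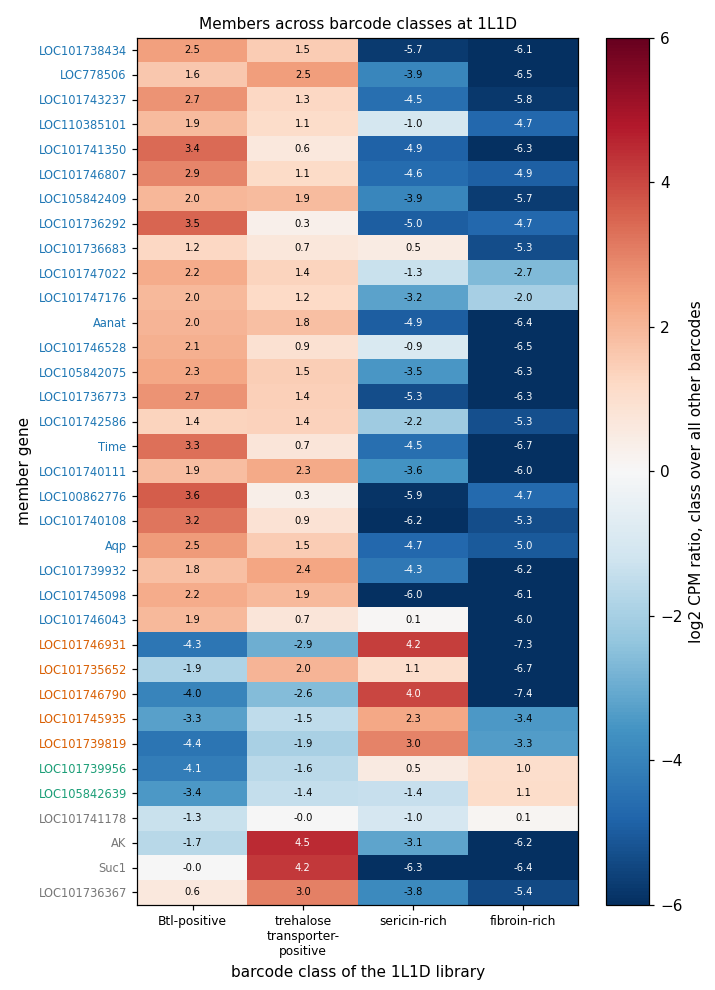
Log2 ratio of CPM in a barcode class over CPM in all other kept barcodes of the 1L1D library, for the 35 members in rows and 4 classes in columns. The 24 members with blue names are positive in the Btl-positive column, 5 with orange names are positive in the sericin-rich column, and the 2 with green names are the only ones above 1 in the fibroin-rich column.

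Of the members called in Btl-positive barcodes, the most abundant was LOC101738434, named fungal protease inhibitor F-like after a small cysteine-rich inhibitor of microbial proteases known from silkworm haemolymph. It stood at 175 CPM at E8D, 5073 CPM at 1L1D and 666 CPM at 1LM, so both outer stages lay well below. Within 1L1D it had 15335 CPM in Btl-positive barcodes and 2796 CPM in all others, a ratio of 5.49. In sericin-rich barcodes it had 104 CPM and in fibroin-rich barcodes 84.3 CPM, against 5602 and 5656 CPM in the barcodes outside each of these classes.

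The share of barcodes with a UMI says how widely a gene was seen, and it depends on depth and on free RNA. At 1000 UMIs per barcode, a UMI of LOC101738434 was seen in 96.7% of Btl-positive barcodes and in 15.7% of fibroin-rich barcodes, whose unthinned shares were 97.9% and 46.0% at nearly equal median depth. For comparison, FIBH itself was seen in 68.8% of thinned Btl-positive barcodes, where its level was 1.76% of that in fibroin-rich barcodes. The level of the 24 members in fibroin-rich barcodes was 0 to 10.6% of that in Btl-positive barcodes, with a median of 0.662%, and in 22 of 24 it was under the percentage found for FIBH. Above the FIBH percentage lay LOC101747022 at 6.19% and LOC101747176 at 10.6%. The part of free RNA in these levels was not tested.

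The uncharacterized gene LOC778506 stood at 665, 3507 and 41.1 CPM at E8D, 1L1D and 1LM. It had 7859 CPM in Btl-positive barcodes and 2541 CPM in all others. LOC101743237, also uncharacterized, stood at 300, 1915 and 46.3 CPM in the 3 stages, with 6213 CPM in Btl-positive barcodes and 961 CPM in others. For both genes 1LM was the lowest stage, with E8D between. LOC101743237 is among the genes by which the study marked its anterior clusters, chosen on these libraries. Across the 4708 barcodes thinned to 1000 UMIs, log levels of these 2 genes had a Pearson r of 0.70, and LOC101743237 and LOC101738434 had one of 0.68. These correlations are across barcodes of 1 library, which share its free RNA, and are a description only.

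The highest ratios in the class belonged to genes of moderate level. LOC100862776, a gamma-glutamyl transpeptidase gene whose product cleaves glutathione outside the cell, had 288 CPM in Btl-positive barcodes and 23.1 CPM in others, a ratio of 12.4. Its stage levels were 0.646, 71.3 and 1.51 CPM, so it was nearly absent at both outer stages. LOC101736292, a lncRNA gene, had 1155 CPM in the class and 102 CPM in others, and 52.8, 293 and 2.90 CPM in the 3 stages. LOC101741350, uncharacterized, had 1875 CPM in the class and 179 CPM in others, and 2.02, 487 and 15.3 CPM in the stages. Both LOC101736292 and LOC101741350 stand among the study's markers of its anterior type LSF, which were picked from these libraries and are no independent evidence.

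Time encodes an esterase, time interval measuring enzyme, that is known as a timer of diapause in silkworm eggs. It stood at 8.15, 85.3 and 3.50 CPM at E8D, 1L1D and 1LM. In Btl-positive barcodes it had 323 CPM, against 32.5 CPM in others, a ratio of 9.95. LOC101740108, a homolog of poly(U)-specific endoribonucleases that cut RNA at uridines, had 244 CPM in the class and 26.5 CPM in others, and 8.96, 65.9 and 4.65 CPM in the stages. Both genes thus followed the same order of stages, with E8D above 1LM.

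The aquaporin gene Aqp, for a water channel, stood at 8.15, 63.1 and 2.66 CPM at E8D, 1L1D and 1LM, with 195 CPM in Btl-positive barcodes and 33.8 CPM in others. The zinc transporter gene LOC101740111 (ZIP10) stood at 0.646, 72.9 and 11.9 CPM, with 179 CPM in the class and 49.5 CPM in others. LOC101746043, a putative inorganic phosphate cotransporter gene, stood at 9.61, 54.5 and 10.2 CPM, with 138 CPM in the class and 35.8 CPM in others. All 3 were at least 3-fold higher in Btl-positive barcodes, and their outer stages differed in order. LOC101747022, a membrane-bound alkaline phosphatase-like gene, stood at 13.2, 231 and 40.7 CPM, with 647 CPM in the class and 138 CPM in others.

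Enzymes of other pathways stood beside them. LOC101747176 encodes homogentisate 1,2-dioxygenase, an enzyme of tyrosine breakdown, and stood at 3.71, 189 and 19.9 CPM at E8D, 1L1D and 1LM. Aanat, for arylalkylamine N-acetyltransferase, which acetylates amines such as dopamine, stood at 33.7, 161 and 33.4 CPM, so its outer stages were level. LOC101739932, for angiotensin-converting enzyme, a peptidase that removes pairs of residues from peptides, stood at 2.50, 59.4 and 2.41 CPM. LOC101736773, for a calcium/calmodulin-dependent phosphodiesterase of cyclic nucleotides, stood at 5.89, 86.2 and 2.66 CPM. In Btl-positive barcodes these 4 genes had 480, 422, 143 and 280 CPM, each at least 3.52-fold over other barcodes. LOC101746528, for connectin, a cell adhesion protein known from Drosophila, stood at 15.4, 128 and 6.88 CPM, with 349 CPM in the class and 79.0 CPM in others.

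The other members called in the class have no known role in the tables. LOC110385101 stood at 108, 610 and 80.0 CPM, LOC101746807 at 24.1, 320 and 15.3 CPM, LOC101736683 at 13.3, 246 and 47.4 CPM and LOC101742586 at 16.2, 86.1 and 15.9 CPM at E8D, 1L1D and 1LM. The lncRNA genes LOC105842409 and LOC105842075 stood at 62.4, 299 and 26.2 CPM and at 22.1, 90.5 and 3.74 CPM. LOC101745098, which has no description, had 0 UMIs at E8D, 58.9 CPM at 1L1D and 10.3 CPM at 1LM, so that its ratio over E8D was at least 243-fold. In these 7 genes the ratio of Btl-positive over other barcodes lay between 2.35 for LOC101736683 and 7.62 for LOC101746807.

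Btl-positive barcodes also existed at E8D, 34 in number with 372133 UMIs, so the stages could be set side by side within the class. LOC101738434 had 15335 CPM in Btl-positive barcodes of 1L1D and 228 CPM in those of E8D. LOC778506 had 7859 CPM in Btl-positive barcodes of 1L1D and 7336 CPM in those of E8D, a log2 ratio of 0.10, although its whole-library ratio was 5.27. In all, 17 of the 24 members were at least 2-fold higher at 1L1D than at E8D within the class, where 3.88% of all genes were, and 7 were not. The 7 were LOC778506, LOC101743237, LOC110385101, LOC105842409, LOC105842075, LOC101742586 and LOC101740108, with log2 ratios between 0.08 and 0.98. Over all 35 members the count was 25. Stage ratios chose the members, so these counts are a description.

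At 1LM the class could not serve the same purpose. Its 36 Btl-positive barcodes held 100059 UMIs and not 1 UMI of LOC105841947, which the study's tables describe as the trehalose transporter gene Tret1 and its text as dynein-related. That gene had 13310 UMIs in the Btl-positive barcodes of 1L1D and 1170 in those of E8D. In the whole 1LM library it had only 91 UMIs, or 5.49 CPM, so its absence from a class of that size says little. LOC101738434 had 13 UMIs in the Btl-positive barcodes of 1LM, at 130 CPM, against 670 CPM in the other barcodes of that stage. Of the 24 members called in the class at 1L1D, 7 had 0 UMIs in the 1LM class, as had 12 of all 35. Within the class 30 of 35 members were called higher at 1L1D than at 1LM, where 1.98% of genes were. Against so few UMIs at 1LM a gene of low level could not be called, so the share over all genes is not a like background. The count is a description.

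The ratio of Btl-positive over other barcodes could also be taken within E8D and within 1LM, which the rule did not use. At E8D, 17 of the 24 members were called higher in Btl-positive barcodes and 0 lower, where 16.7% of genes were called higher, and 4 had 0 UMIs in the class. The 7 not called were LOC101738434, LOC101741350, LOC101747022, LOC101747176, LOC101740111, LOC100862776 and LOC101745098. At 1LM, LOC101741350 and Aqp of the 24 were called higher, a share near the 6.66% of all genes, and 2 were called lower. In that class 1 UMI is worth 9.99 CPM, and the 24 had a median of 13.6 CPM in the 1LM library. The 2 called lower, LOC101738434 and LOC110385101, had 13 and 2 UMIs in the class. The part of depth in the calls at 1LM was not tested, and a lack of a call there is not read as a result.

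The trehalose transporter gene LOC105841947, a marker of the study's type LSF, gave another class, chosen after the data were seen. It held 1078 barcodes of 1L1D with a UMI of that gene, none of Btl and membership of no other class, with a median depth of 2207 UMIs. There, 20 of 35 members were called higher, where 7.18% of genes were (8.57% of those with at least 50 CPM), and 6 were called lower (3.79% of genes). Of the 20, 16 were also called in Btl-positive barcodes. LOC778506 had 10673 CPM in this class and 1901 CPM in other barcodes, a ratio of 5.61 that was higher than its 3.09 in Btl-positive barcodes. The LSF markers LOC101741350 and LOC101736292 had ratios of only 1.53 and 1.23 here, against 10.5 and 11.3 in Btl-positive barcodes. Within this class 34 of 35 members were called higher at 1L1D than at E8D (7.88% of genes) and 31 than at 1LM (2.49% of genes), again as a description.

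Barcodes with a UMI of Btl or of LOC105841947 made up 11.5%, 32.8% and 1.35% of kept barcodes at E8D, 1L1D and 1LM. They held 46.3%, 56.1% and 3.63% of the members' UMIs. At 1L1D their median depth was 3450.5 UMIs, against 1754.5 UMIs for the other barcodes, so the chance of seeing a marker UMI differed between them. At 1L1D they held 38.1% of all UMIs. They held over 50% of the UMIs of 28 of 35 members, against 29.2% of all genes with over 3 UMIs, and over 90% of the UMIs of 19 members, against 5.37% of genes. In the summed counts, more barcodes of a kind and more RNA per barcode cannot be told apart.

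With these barcodes left out of every library, an alternative added after the data were seen, 7 of the 35 members still passed the rule. Of these, 4 belonged to the sericin-rich group, 2 to the fibroin-rich group and 1, LOC101741178, to none, while 0 of the 24 members called in Btl-positive barcodes passed. The 24 were called for their level in barcodes that this step takes out, and the step took out 32.8% of barcodes at 1L1D but 1.35% at 1LM, so much of that count is set by construction. Over E8D, 21 members were still at least 4-fold higher (4.91% of genes), and 12 were over 1LM (1.22% of genes). The rule chose the members by the same fold in the same libraries. These counts are thus a description, and the shares over all genes are not a like background. The median log2 ratio over the members was 2.24 over E8D and 1.57 over 1LM. LOC101738434 then had 476 CPM at 1L1D and 625 CPM at 1LM, and 7 members in all were lower at 1L1D than at 1LM, with LOC101738434 among Aanat, LOC101740111, Suc1, LOC101740108, LOC101739932 and LOC101745098.

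**Figure D3:**
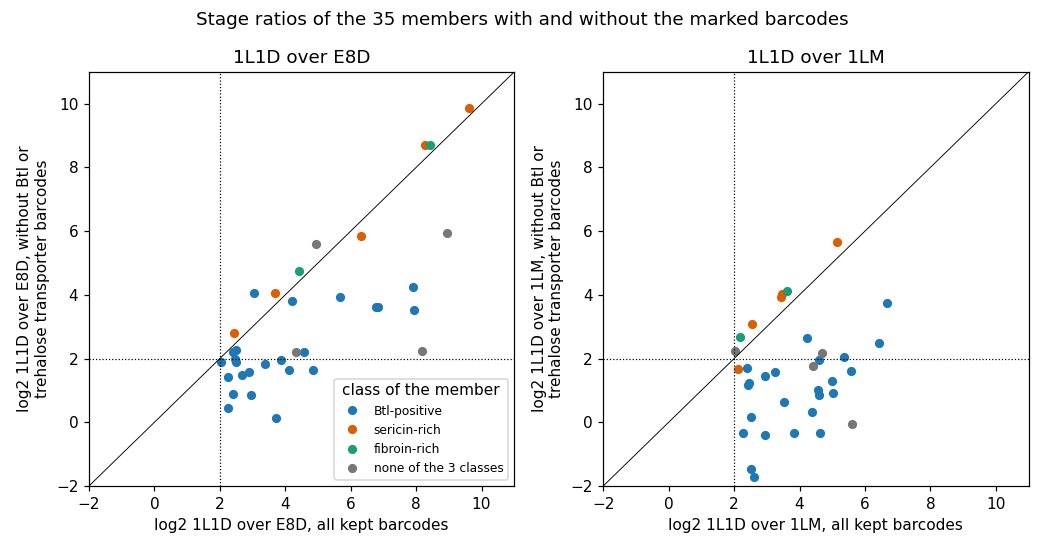
Log2 ratio of 1L1D over E8D (left) and over 1LM (right) for the 35 members, with all kept barcodes on the horizontal axis and without barcodes holding a UMI of Btl or of the trehalose transporter gene on the vertical axis. Dotted lines mark 4-fold and the solid line equal values. In the right panel 12 points lie above the horizontal dotted line, and 7 points lie below 0.

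The 5 members called in sericin-rich barcodes held the most abundant member of all. LOC101746931 is named balbiani ring protein 6, after secreted proteins from which Chironomus midge larvae spin their tubes. It stood at 588, 7618 and 684 CPM at E8D, 1L1D and 1LM, with the outer stages nearly level. In sericin-rich barcodes it had 51871 CPM and in all others 2904 CPM, a ratio of 17.9. At 1000 UMIs per barcode it was seen in 98.7% of sericin-rich and 11.3% of Btl-positive barcodes, with unthinned shares of 100% and 48.1% at median depths of 3770 and 11204 UMIs.

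LOC101746790, uncharacterized, followed it closely, at 401, 2173 and 372 CPM in the 3 stages. It had 14309 CPM in sericin-rich barcodes and 877 CPM in others, a ratio of 16.3. Across thinned barcodes the log levels of these 2 genes had a Pearson r of 0.69, among the highest of the 595 pairs of members. The 5% deepest barcodes held 61.5% and 61.8% of the UMIs of LOC101746931 and LOC101746790, against a median of 19.7% over the members.

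LOC101745935, named suppressor protein SRP40-like after a serine-rich nucleolar protein of yeast, stood at 3.31, 1023 and 28.7 CPM at E8D, 1L1D and 1LM. Its ratios of 309 over E8D and 35.6 over 1LM placed it among the members that stood furthest from both stages. It had 3669 CPM in sericin-rich barcodes and 741 CPM in others, and it is one of the study's markers of the sericin-making type SPS. LOC101739819, named venom peptide BmKAPI-like after a scorpion peptide of the Ascaris type of protease inhibitors, had 0 UMIs at E8D, 189 CPM at 1L1D and 17.6 CPM at 1LM. Its ratio over E8D was at least 782-fold, and it had 897 CPM in sericin-rich barcodes and 114 CPM in others.

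LOC101735652, an ice-structuring glycoprotein-like gene, was the least bound to the class. It stood at 42.5, 3379 and 771 CPM in the 3 stages. It had 6387 CPM in sericin-rich barcodes and 3059 CPM in others, a ratio of 2.09 that lies near the limit of 2. In trehalose transporter-positive barcodes it had 8808 CPM, against 2162 CPM in others, a ratio of 4.07.

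Within sericin-rich barcodes, set in the same way at each stage, all 5 stood higher at 1L1D than at E8D and 1LM. LOC101746931 had 6322, 51871 and 5436 CPM in sericin-rich barcodes of E8D, 1L1D and 1LM. LOC101746790 had 2410, 14309 and 3194 CPM there. Over all 35 members, 17 were called higher at 1L1D than at E8D in the class (8.15% of genes) and 18 higher than at 1LM (3.39% of genes). The sericin share that set the class differed strongly between stages, with a lowest share of 0.0928%, 0.991% and 2.47% in the class at E8D, 1L1D and 1LM. At E8D the class had a median share of 0.172% at a median depth of 704 UMIs, against 2.24% and 3770 UMIs at 1L1D. A typical barcode of the E8D class thus held very few sericin UMIs, and the classes need not hold the same kind of cell. The ratio of sericin-rich over other barcodes within E8D and within 1LM was not used by the rule. At E8D it was called higher for 3 of the 5, LOC101746931, LOC101746790 and LOC101735652 (4.32% of genes), while LOC101739819 had 0 UMIs. At 1LM it was called higher for LOC101746931, LOC101746790 and LOC101739819 (3.83% of genes). LOC101745935, a marker of the sericin-making type, had 5.07 CPM in sericin-rich barcodes and 3.22 CPM in others at E8D, and 43.9 CPM and 27.9 CPM at 1LM, and was called at neither stage.

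In fibroin-rich barcodes 2 members were called, both near the limit of 2, and neither reached 4. LOC101739956 lost its call at a limit of 20% mitochondrial UMIs, at a log2 ratio of 0.98. LOC105842639 lost its call after thinning, at 0.58, and with the mean over barcodes, at 0.87. LOC101739956, for SCO-spondin, a large secreted glycoprotein known from vertebrate brain, had 0 UMIs at E8D, 83.1 CPM at 1L1D and 6.82 CPM at 1LM, at least 343-fold over E8D. It had 153 CPM in fibroin-rich barcodes and 74.9 CPM in others, a ratio of 2.05. LOC105842639, without description, stood at 3.07, 65.8 and 14.7 CPM and had 125 CPM in the class and 58.9 CPM in others, a ratio of 2.12. In Btl-positive barcodes the 2 genes had 5.71 and 7.32 CPM, so they were low there. Their r with each other across thinned barcodes was 0.002, so no relation was seen between them. Within fibroin-rich barcodes 9 of 35 members were called higher at 1L1D than at E8D (5.37% of genes) and 9 than at 1LM (1.81% of genes), both genes among them.

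The last 4 members were called in none of the 3 classes. LOC101741178, uncharacterized, was spread most evenly. It stood at 15.6, 481 and 118 CPM in the stages, it was seen in 36.8% of thinned 1L1D barcodes, and its top 1% of barcodes held only 13.2% of its UMIs, the lowest among the members. Its CPM was 214 in Btl-positive, 250 in sericin-rich, 519 in fibroin-rich and 589 in unclassed barcodes.

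AK encodes arginine kinase, which buffers ATP in arthropod cells with phosphoarginine. It had 0 UMIs at E8D, 120 CPM at 1L1D and 5.67 CPM at 1LM, at least 497-fold over E8D. It had 43.2 CPM in Btl-positive barcodes and 138 CPM in others, but 548 CPM in trehalose transporter-positive barcodes and 24.5 CPM in others, a ratio of 22.4. LOC101736367, for adenylate kinase isoenzyme 1, which exchanges phosphate among adenine nucleotides, stood at 2.99, 60.0 and 2.35 CPM. It had 211 CPM in trehalose transporter-positive barcodes and 26.2 CPM in others, and its r with AK was 0.37. Of the 219 barcodes with at least 3 AK UMIs, 177 had a trehalose transporter UMI and 19 a Btl UMI, and the summed muscle list stood at 127 CPM in them and 112 CPM in other barcodes. Those 219 had a median of 6514 UMIs, against 2029 in the library.

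Suc1, the silkworm beta-fructofuranosidase gene (BmSuc1), whose enzyme splits sucrose, was the most concentrated member. It had 1 UMI at E8D, 2162 UMIs at 1L1D and 24 UMIs at 1LM, at 0.0807, 70.1 and 1.45 CPM. The ratio over E8D was 289.5 with 3 counts in place of the 1 UMI, as in the range over members above, and 869 from the 1 UMI itself, with a counting interval of 156 to 34323. Only 115 barcodes of 1L1D, 2.44%, held a UMI of Suc1, and the top 1% of barcodes held 96.1% of its UMIs. Of the 50 barcodes with at least 3 Suc1 UMIs, 49 had a trehalose transporter UMI, 12 a Btl UMI and 0 were sericin-rich or fibroin-rich. Those 50 had a median of 12845 UMIs, against 2029 in the library, which raises the chance of seeing any marker UMI. Of all 4708 kept barcodes, 1516 had a trehalose transporter UMI.

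**Figure D4:**
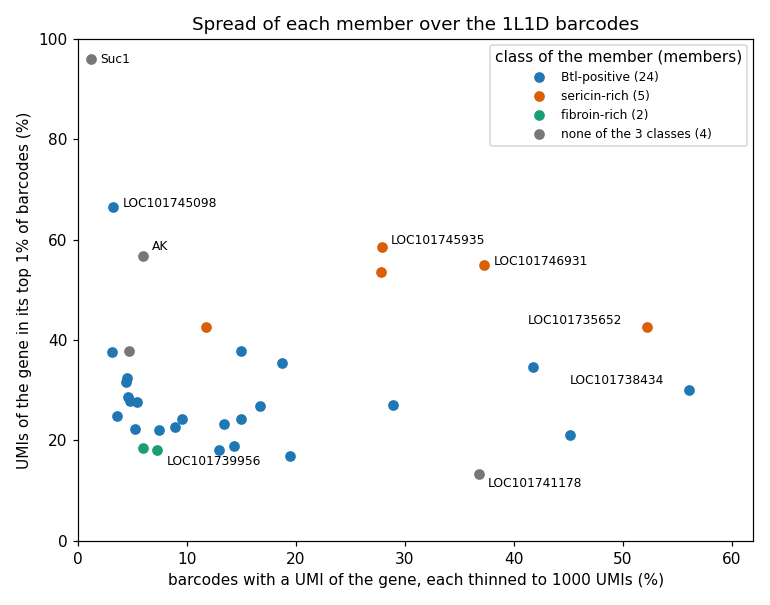
Share of 1L1D barcodes with a UMI of each member, after thinning each barcode to 1000 UMIs, against the share of the gene's UMIs held by its top 1% of barcodes, coloured by the class of the member. Suc1 stands at the top left with 96.1% of its UMIs in the top 1%, LOC101738434 at the far right with 56.1% of barcodes, and LOC101741178 lowest.

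In the barcodes with over 30% mitochondrial UMIs, which the rule did not use, 34 of 35 members were also higher at 1L1D than at E8D, again with counts below 3 taken as 3. There were 1292 such barcodes with 1750087 UMIs at 1L1D and 278 with 190496 UMIs at E8D, from the same libraries. The median log2 ratio was 1.44 over the members and -1.33 over all genes, and 22 members were called at least 2-fold higher, against 2.09% of genes. At least 4-fold higher were 10 members, against 0.67% of genes. With so few UMIs at E8D, the floor of 3 counts lowers the ratio of genes of low level and keeps them from a call. The members had at least 50 CPM at 1L1D by the rule, so these values over all genes are not a like background. For the 34, no such share was taken, so that count is a description. The log2 ratios ranged from -0.08 to 6.67 over the members. LOC101735652 had the highest ratio, with 1598 CPM at 1L1D and 10.5 CPM at E8D, where it had 2 UMIs.

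Of 14 gene lists set by the words of the gene descriptions, 4 held a member and 10, among them the proton pump, protease, detoxification and transcription factor lists, held none. Only 8, 6, 8 and 15 genes of these named lists reached 50 CPM at 1L1D, where 35 of all 1120 genes were members. A list without a member is thus not read as a result. Of the members, 9 belonged to the uncharacterized proteins (93 at 50 CPM) and 3 to the non-coding RNAs (22 at 50 CPM). Another 1 (Aqp) belonged to the membrane carriers (12 at 50 CPM) and 1 (LOC101738434) to the protease inhibitors other than serpins (13 at 50 CPM). In the protease inhibitor list, 12 of 23 tested genes were at least 4-fold higher at 1L1D than at E8D and 2 at least 4-fold lower, against 6.35% of all genes higher and 6.01% lower. Against 1LM, 6 of 26 were higher and 9 lower, against 2.53% of all genes higher and 25.2% lower. Of the 44 membrane carriers tested against E8D, 12 were higher and 1 lower, and of 47 tested against 1LM, 8 were higher and 22 lower. Of the 11 proton pump genes none was 4-fold higher or lower against either stage.

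Of the members, 20 carry a description other than uncharacterized, 32 are protein-coding and 3 are lncRNAs. In the RefSeq order of genes on the assembly ASM3026992v2, 31 of the members could be placed, on 16 chromosomes. No 2 members were direct neighbours, and 1 pair lay within 5 genes of each other, LOC101739819 and LOC101739956, with 1 gene between them. Both of these had 0 UMIs at E8D, and they were called in different classes.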

How the data were processed

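Silk glands of 3 stages were profiled by droplet single-cell RNA sequencing, with 1 library per stage. According to the submitters' processing notes and the methods, the authors used Cell Ranger 3.1.0 with STAR on the assembly ASM15162v1, and the deposited values are whole UMI counts per gene and barcode, without normalization. Replicates were not made, so no test between stages was run.

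Barcodes with over 30% of UMIs from 13 mitochondrial genes were left out. UMIs were summed per gene and scaled to CPM. Intervals are 95% exact Poisson intervals for CPM, exact binomial intervals for ratios and Clopper-Pearson intervals for shares, and cover counting error only. A count under 3 was set to 3 in ratios, and a ratio against 0 is a lower bound. Genes were tested in a comparison when either side had over 3 UMIs. In comparisons of stages within a class, the shares cover genes of all levels, while the members had at least 50 CPM at 1L1D by the rule. For shares, each barcode was thinned to 1000 UMIs (seed 1), which left out 3418, 0 and 1743 barcodes at E8D, 1L1D and 1LM. Descriptions came from the study's tables for 3461 genes, and biotypes from RefSeq or, for genes not matched there, from the study's tables. RefSeq names and gene order are on ASM3026992v2, and no coordinate was taken from it. The members, lists and classes were chosen with earlier results of these data known. The trehalose transporter class and the alternative without those barcodes were added after the data were seen. Named genes are the 15 highest at 1L1D, the 10 with the highest smaller ratio, the 5 highest in each class with at least 20 UMIs there, markers and list members, and those at the threshold, which makes 29 members, and the other 6 are named to account for all. The scripts were tested on simulated data. Python 3.11.15, numpy 2.4.6, scipy 1.17.1, edgeR 4.0.16 and DESeq2 1.42.0 (for scaling factors only) were used.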

Additional observations from a re-analysis of the deposited data

Results flagged for a closer look

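For 6 members a ratio of class over other barcodes that was at least 2-fold in one direction at 1L1D was at least 2-fold in the opposite direction at another stage. The difference between stages was not tested, since each stage had 1 library. In Btl-positive barcodes, LOC101738434 had a log2 ratio of 2.46 at 1L1D and -2.37 at 1LM (13 UMIs in the class at 1LM). LOC110385101 had 1.89 at 1L1D and -1.42 at 1LM (2 UMIs in the class). AK had -1.67 at 1L1D and 3.49 at 1LM (6 UMIs in the class). LOC101741178 had -1.34 at 1L1D and 1.11 at E8D in Btl-positive barcodes (12 UMIs in the class at E8D), and -1.01 at 1L1D and 1.04 at E8D in sericin-rich barcodes (18 UMIs). LOC101747176 had -2.01 at 1L1D and 1.46 at 1LM in fibroin-rich barcodes, where 64 UMIs at 1LM gave 47.9 CPM, against 17.4 CPM in other barcodes of that stage. LOC105842075 had -3.50 at 1L1D and 1.43 at 1LM in sericin-rich barcodes (8 UMIs in the class at 1LM). The Btl-positive barcodes of 1LM held no trehalose transporter UMI, but that gene had only 91 UMIs in the whole 1LM library. What part this had in these values was not tested.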

How the results depend on the processing

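No paired analysis was possible because each stage had 1 library. Of the alternatives to the rule, 9 gave 27 to 50 members, within 1.5 times of 35. Scaling by TMM factors or by DESeq2 size factors gave 66 members each, a 1L1D minimum of 20 CPM 57, a minimum of 100 CPM 20, a fold of 8 gave 15, and leaving out barcodes with a Btl or trehalose transporter UMI gave 10, of which 7 were among the 35. Both scalings raise every ratio of 1L1D, so the 35 are among the 66 by construction. The Btl-positive count was 23 or 24 in 9 alternatives, 15 at a fold of 4 and 20 with the trehalose transporter class in its place, and the sericin-rich count was 4 or 5 in all. The fibroin-rich count of 2 was 1 at a limit of 20% mitochondrial UMIs, 1 after thinning and 1 with the mean over barcodes, and 0 at a fold of 4. Without barcodes holding a Btl or trehalose transporter UMI, the log2 ratio of 1L1D over 1LM turned to -0.39 for LOC101738434, -0.053 for Suc1, -0.35 for LOC101739932 and -0.35 for LOC101740108, and by construction this alternative removes barcodes in which these genes were found. In the same alternative it also turned to -0.35 for Aanat, -1.73 for LOC101740111 and -1.48 for LOC101745098. Among the 29 members of the naming rule no other log2 ratio between stages changed sign in the alternatives run, while the other 6 were not followed through the rest, and between classes sign changes were seen only for Suc1 in Btl-positive and LOC101741178 in fibroin-rich barcodes, both uncalled. Depth limits the E8D values most, with 3 counts worth 0.242 CPM there, against 0.0973 CPM at 1L1D and 0.181 CPM at 1LM.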

Other observations

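Members differed in how their UMIs were split over barcodes of different depth. The 1L1D barcodes were split by depth into 4 groups of about equal number. In the group with the fewest UMIs, 1105 to 1359 each, the members summed to 15338 CPM. In the group with the most, 6392 to 101152 UMIs each, they summed to 32875 CPM. The groups between them held 15911 and 21532 CPM. The members called in sericin-rich barcodes leaned on the deepest barcodes, with a median of 61.5% of a gene's UMIs in the deepest 5%, against 17.6% for those called in Btl-positive barcodes. Of the 595 pairs of members, 18 had a Pearson r over 0.4 across thinned barcodes, and in all 18 both genes were called in the same class. The class calls and the correlations come from the same barcodes, so this is in part by construction. Of the 595 pairs, 276 lay within the Btl-positive group and 10 within the sericin-rich group. In the 124 barcodes with at least 3 UMIs of LOC101745098, which were chosen after the data were seen, 120 had a trehalose transporter UMI and 70 a Btl UMI. Those 124 had a median of 12825 UMIs, against 2029 in the library.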
